A study of Mus musculus with 20 samples.

Results

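The Hox genes encode homeodomain transcription factors that give cells their position along the head-to-tail axis. Mouse Hox genes were taken from the count table by symbol, as every gene named Hox followed by a cluster letter (a to d) and a number, which gave all 39 members of 4 clusters among 78258 genes. Of these 39 members, 32 had enough counts to be tested among 28564 tested genes, and the other 7 were near 0.

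RNA was measured by stranded mRNA sequencing in lumbar L4 to L6 dorsal root ganglia (DRG, the sensory neuron clusters beside the spinal cord) of 10 male mice, 1 library per side of each mouse. Every mouse, control or knockout, received tamoxifen (100 mg/kg, intraperitoneal, 5 daily doses) at 17 weeks of age, had a sciatic nerve transected 4 weeks later and gave its ganglia 1 day after that. The 5 conditional knockout mice (Ahr cKO, mice 61, 64, 95, 99 and 100) were Ahr fl/fl with Thy1CRE-ERT2/EYFP, a tamoxifen-dependent Cre with a yellow fluorescent reporter under the Thy1 promoter. The 5 control mice (62, 63, 65, 96 and 97) were described as Ahr f/f or f/+. Their library names all read ff and their titles Wildtype, so which mouse had which allele is uncertain. Thy1 drives transgenes in neurons, so glia, fibroblasts and vessels of the ganglia would keep Ahr, the aryl hydrocarbon receptor. The 4 groups were thus the contralateral and the lesioned, ipsilateral side of control and of cKO mice, with 5 libraries each. One field of the labels named a spinal cord injury, and the protocol text, which described nerve transection, was followed.

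The mammalian clusters arose by duplication, and genes at the same place in different clusters form 13 paralogue groups. Low numbers are expressed from the hindbrain down and high numbers only towards the tail, with Hox10 and Hox11 genes patterning the lumbar and sacral regions. Hox proteins bind DNA together with the TALE homeodomain proteins of the Pbx, Meis and Pknox families, and Polycomb and Trithorax proteins keep each cluster silent or active after the embryo. In the spinal cord and ganglia, Hox codes set motor neuron pools and sensory neuron properties for limb or trunk levels.

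Total counts per library lay between 76.2 and 118.5 M (M, mega). Ahr was at 21.3 to 27.2 CPM (read counts per mega counts of library, TMM-scaled) in control contralateral ganglia and at 19.5 to 21.0 in cKO contralateral ganglia, a log2 difference of -0.25 that did not pass the test (adjusted p = 0.103). Which exon is floxed was not given, so a count over the whole gene may not check the deletion. Atf3, a factor induced in axotomised neurons, was at 8.46 to 13.8 CPM in all contralateral and at 370 to 462 CPM in all ipsilateral libraries, as the side labels say. Summed CPM of 10 sensory neuron markers lay between 6996 and 8478 in every library, whereas most of 8 spinal cord markers (6 with a median under 0.1 CPM) were nearly absent. The contralateral libraries of cKO mice 64 and 99 were the lowest of all libraries for Hoxd10, Hoxd11 and Hoxc11. The contralateral genotype calls are given with and without them below. Contralateral correlations with Hoxd10 are given without mice 95 and 99 instead, and SDs with all libraries only. Fewer cells of a type and less RNA per cell cannot be told apart in such bulk libraries.

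Promoter windows of the members the results turn on are shown here because Hoxd1 and Hoxb8 were lower on the lesioned side in both genotypes, while Hoxd10 and Hoxd11 varied together between libraries. The windows run from 250 bases before to 50 bases after an annotated start (RefSeq, build GRCm38.p6), and 24 windows of 22 Hox genes were in the table. Hoxd1 lies at chr2:74762730-74763029, Hoxb8 at chr11:96281655-96281954, Hoxd10 at chr2:74691641-74691940, and the Hoxd11 windows at chr2:74679308-74679607 and chr2:74682073-74682372, all on the plus strand. Capitals mark matches, on either strand, to AP-1 (TGANTCA), the cyclic AMP element (TGACGTCA), a Pbx-Hox site (TGATTNAT) or a posterior Hox site (TTTATNG).
Hoxd1: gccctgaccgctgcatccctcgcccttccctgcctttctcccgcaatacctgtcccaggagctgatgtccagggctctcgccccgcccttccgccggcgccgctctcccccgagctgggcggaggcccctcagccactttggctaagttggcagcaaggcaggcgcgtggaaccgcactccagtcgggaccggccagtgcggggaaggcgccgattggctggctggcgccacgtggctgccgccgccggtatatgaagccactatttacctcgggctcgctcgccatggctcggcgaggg
Hoxb8: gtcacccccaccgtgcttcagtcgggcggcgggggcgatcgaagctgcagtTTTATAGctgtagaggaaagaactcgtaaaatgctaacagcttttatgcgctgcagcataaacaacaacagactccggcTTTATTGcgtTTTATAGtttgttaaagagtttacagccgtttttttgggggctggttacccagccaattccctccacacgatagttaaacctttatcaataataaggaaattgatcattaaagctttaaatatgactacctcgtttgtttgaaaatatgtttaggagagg
Hoxd10: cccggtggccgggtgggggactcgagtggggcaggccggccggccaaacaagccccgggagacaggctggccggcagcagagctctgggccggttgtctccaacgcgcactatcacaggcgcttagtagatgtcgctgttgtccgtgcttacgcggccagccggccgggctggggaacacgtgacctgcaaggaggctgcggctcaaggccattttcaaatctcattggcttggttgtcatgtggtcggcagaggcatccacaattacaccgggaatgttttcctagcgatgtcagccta
Hoxd11, first window: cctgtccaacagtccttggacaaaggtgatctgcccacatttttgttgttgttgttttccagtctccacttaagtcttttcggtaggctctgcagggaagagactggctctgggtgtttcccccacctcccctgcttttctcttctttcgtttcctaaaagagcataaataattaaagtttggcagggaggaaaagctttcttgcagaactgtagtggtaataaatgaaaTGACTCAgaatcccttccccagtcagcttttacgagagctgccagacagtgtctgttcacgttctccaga
Hoxd11, second window: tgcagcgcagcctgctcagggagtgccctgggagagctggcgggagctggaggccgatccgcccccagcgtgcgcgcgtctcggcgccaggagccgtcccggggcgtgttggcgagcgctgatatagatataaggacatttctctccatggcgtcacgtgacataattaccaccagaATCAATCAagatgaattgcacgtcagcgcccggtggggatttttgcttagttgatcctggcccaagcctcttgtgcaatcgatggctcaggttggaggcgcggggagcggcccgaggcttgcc
Hoxb8 held 3 posterior Hox matches, the first Hoxd11 window 1 AP-1 match and the second 1 Pbx-Hox match, while the Hoxd1 and Hoxd10 windows held none of these letters. Over all Hox windows, 1 of 24 held an AP-1 match, 0 the cyclic AMP element, 2 a Pbx-Hox match and 2 a posterior Hox match. Among 32851 promoters of all genes those shares were 7.81%, 1.79%, 3.22% and 10.9%. A match describes letters in the window and is no evidence of binding.

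Summed over members, the adult ganglia kept a Hox profile that rose to paralogue group 9 and ended at group 11. The sums were not divided by member number, which was 4 in group 9, 3 in groups 8 and 10 and 2 in group 7. Per kilobase of exon, the 4 Hox9 genes together had a median of 32.7 CPM per kb over 20 libraries, 23.7% of the Hox sum, followed by the Hox10 genes with 22.2, the Hox8 genes with 19.8 and the Hox7 genes with 19.3. Hox11 genes summed to a median of 3.05 CPM per kb, ranging from 0.272 to 7.84 between libraries, and Hox12 genes had a median of 0. Among anterior groups, Hox2 and Hox3 were low, at 0.930 and 1.93, and Hox4 to Hox6 lay between 6.91 and 10.2. Hox1 departed from this slope, and its 11.2 CPM per kb came almost wholly from Hoxd1, a gene known from pain-sensing neurons. The A, B and D clusters contributed alike, with medians of 37.8, 34.5 and 38.3 CPM per kb, and the C cluster 24.5.

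The single members with the highest level per kilobase were Hoxa7 (median 13.3 CPM per kb), Hoxd8 (11.3), Hoxd1 (10.9), Hoxb9 (9.78), Hoxd9 (9.13) and Hoxa9 (9.01), then Hoxc10 (8.58) and Hoxa10 (7.97). The deposited FPKM divide by the whole gene span instead of the exons, and by them the order began with Hoxd1, Hoxd8 and Hoxd9, so ranks among members with unlike intron lengths depend on that choice.

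**Figure D1:**
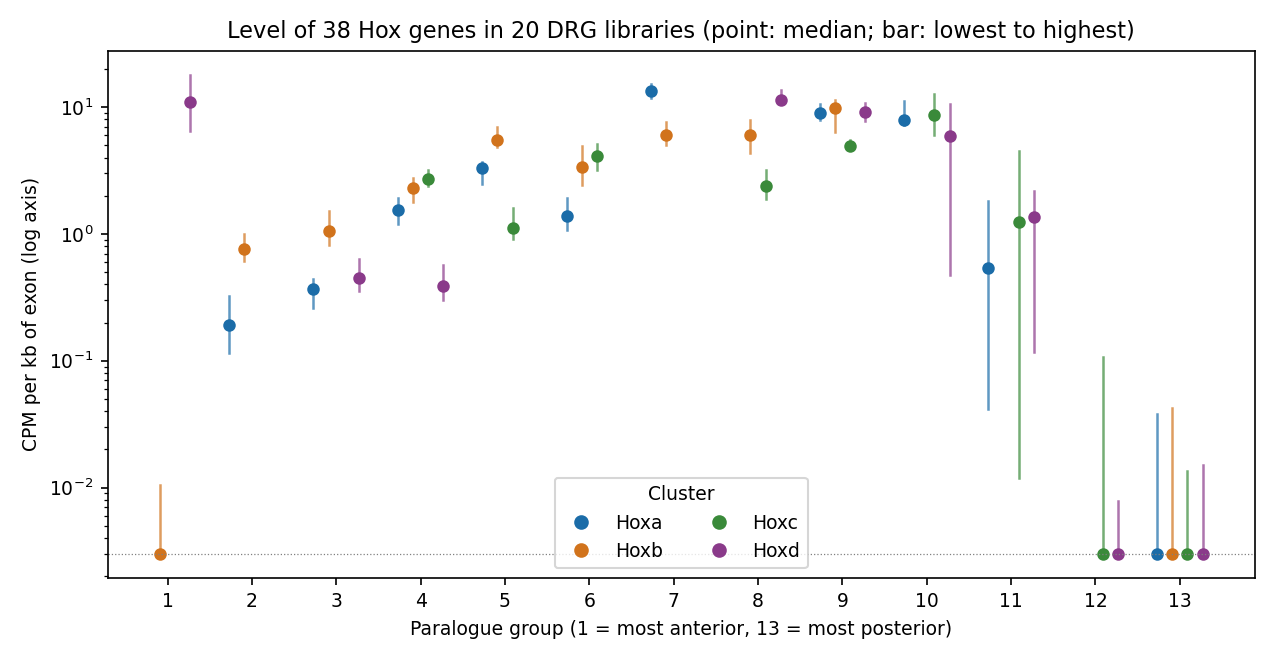
Level of 38 Hox genes by paralogue group, in CPM per kilobase of exon on a log axis, with points for the median and bars from the lowest to the highest of 20 libraries; values below the dotted line, zeros included, are drawn on it. Levels are high from groups 7 to 10 and in Hoxd1, bars are long for Hoxd10 and the Hox11 genes, and the Hox12 and Hox13 genes have medians at or near 0.

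The 7 members that were not tested were Hoxb1 and all 6 members of groups 12 and 13, Hoxa13, Hoxb13, Hoxc12, Hoxc13, Hoxd12 and Hoxd13. None had more than 10 counts in any library, against a limit of 3 counts (0.0253 to 0.0394 CPM) that a count of 0 allows. Hoxb13, the most posterior B gene, had 0 counts in all 10 contralateral libraries and between 0 and 8 in the ipsilateral ones. Hoxc12 had its 2 highest counts, 10 and 6, in the contralateral ganglia of cKO mice 95 and 100. Counts this small allow no statement on expression in the ganglion as a whole.

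One day after transection, Hox genes that changed were mostly lower in the lesioned ganglia. In control mice 14 of 32 tested Hox genes passed the test (edgeR quasi-likelihood, adjusted p under 0.05 by Benjamini-Hochberg over all tested genes), 11 lower and 3 higher, where 29.9% of all genes were called, 16% lower and 13.8% higher. In cKO mice 12 of 32 passed, all lower, against 31.3% of all genes called, 15.1% lower and 16.2% higher. The count of called members in either direction was therefore above the whole-table share by a few genes, and the lower calls made up 34.4% and 37.5% of the members. Averaged over genotypes 17 members passed, 15 lower and 2 higher, against 41.5% of all genes called, 22% lower and 19.5% higher. The median log2 difference of the 32 members was -0.11 in control and -0.24 in cKO mice, beside -0.0047 and -0.03 over all tested genes. In control mice the sides did not overlap for 13 of 32 members, 12 lower and 1 higher, where 12.3% and 11.3% of all genes were apart in these directions. In cKO mice this held for 9 of 32, all lower, where 8.32% of all genes were lower and 11.9% higher without overlap. Summed Hox CPM were 354.5 to 395.9 in control contralateral and 337.6 to 343.4 in control ipsilateral libraries, and 375.2 to 429.8 and 331.4 to 355.4 in cKO mice, so the sides did not overlap in either genotype. Markers of some cell types also differed between sides. Summed CPM of 5 satellite glia markers were 658 to 718 contralaterally and 803 to 880 ipsilaterally in control mice, and 649 to 800 and 797 to 841 in cKO mice, so the sides overlapped only in cKO mice. In control mice 2 of the 5 were called higher and 1 lower, and in cKO mice 3 and 1. Of 10 sensory neuron markers 4 were called lower in control and 3 in cKO mice, and 0 higher. Their sums overlapped between sides, at 7409 to 8372 and 7230 to 7900 CPM in control and 7079 to 8478 and 6996 to 7539 CPM in cKO mice. Sums of 8 spinal cord markers were 3.69 to 5.88 contralaterally and 6.16 to 16.6 ipsilaterally in control mice, and 2.75 to 6.04 and 5.72 to 8.34 in cKO mice. Of these, Olig1, Olig2, Mog, Chat, Mnx1 and Slc6a5 had medians under 0.1 CPM, which leaves Gfap and Slc5a7 as the members above it. The part of these markers in the Hox differences was not tested.

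**Figure D2:**
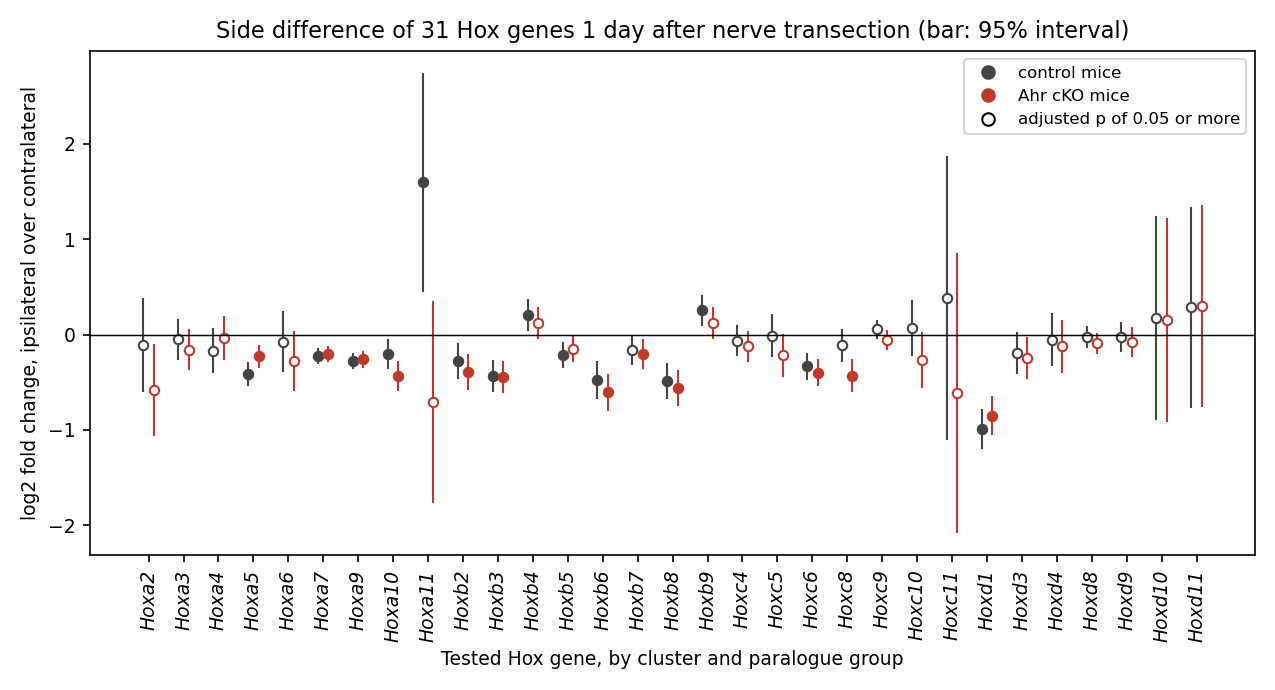
Log2 fold change of the ipsilateral over the contralateral side for 31 tested Hox genes, in control (grey) and Ahr cKO (red) mice, with bars for 95% intervals of the edgeR fit and filled points for an adjusted p under 0.05. Hoxd1 is lowest in both genotypes, most A and B cluster points lie below 0, and the intervals of Hoxa11, Hoxc11, Hoxd10 and Hoxd11 are the widest.

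Hoxd1, the one anterior gene with a high level, changed most among the lower calls. Per-library values are given throughout in the order of mice 62, 63, 65, 96 and 97 for control and 61, 64, 95, 99 and 100 for cKO. In control mice Hoxd1 was at 33.5, 25.4, 27.5, 27.3 and 26 CPM contralaterally and at 15.1, 13.4, 15.9, 12.3 and 13.7 CPM ipsilaterally. The cKO values were 27, 25, 23.5, 28.8 and 29.8 and at 16.9, 12, 14, 16.1 and 15.4 CPM. Every mouse was lower on the lesioned side and the sides did not overlap, with mouse 62 the highest contralateral value. Hoxd1 fell by 0.99 on the log2 scale in control mice (SE 0.095, adjusted p = 1.03e-07) and by 0.85 in cKO mice (SE 0.095, adjusted p = 6.87e-07), to 0.503 and 0.555 of the contralateral level.

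Hoxb8, a thoracic to lumbar gene of the B cluster, was at 16.2, 19.4, 19.1, 19.6 and 19.5 CPM contralaterally and 12, 14.8, 11.5, 15.5 and 13 CPM ipsilaterally in control mice. In cKO mice the values were 18.9, 20.4, 16, 20.7 and 17.4 CPM and 12.6, 12.2, 11.6, 13.3 and 14 CPM. All 10 mice were lower on the lesioned side, and the sides did not overlap. It fell by 0.49 (SE 0.086, adjusted p = 0.000139) in control and by 0.56 (SE 0.086, adjusted p = 3.32e-05) in cKO mice on the log2 scale.

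Hoxb6, of the same cluster, was at 6.86, 7.74, 8.38, 8.21 and 7.5 CPM contralaterally and 4.82, 6.46, 5.7, 5.45 and 5.39 CPM ipsilaterally in control mice. Levels in cKO mice were 8.63, 9.7, 7.77, 7.36 and 8.54 CPM and 5.96, 5.12, 4.8, 5.37 and 6.32 CPM. Again no ipsilateral library reached the lowest contralateral one of its genotype. Hoxb6 fell by 0.48 (SE 0.088, adjusted p = 0.000265) and by 0.61 (SE 0.088, adjusted p = 1.65e-05) on the log2 scale.

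**Figure D3:**
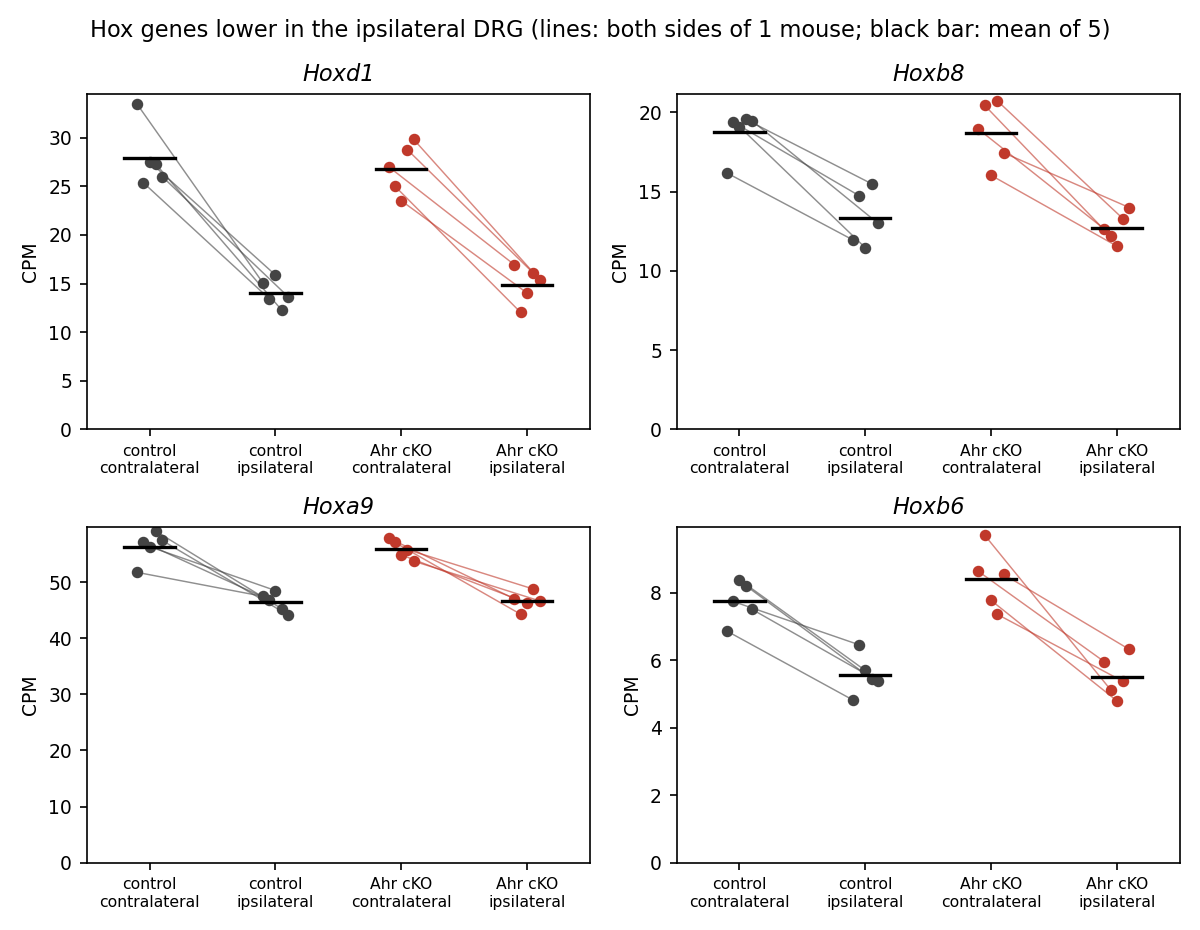
CPM of Hoxd1, Hoxb8, Hoxa9 and Hoxb6 in each library on axes that start at 0, with lines joining both sides of a mouse and black bars for the mean of 5 mice. In all 4 genes every line slopes down to the ipsilateral side, from 25.4 to 33.5 CPM to 12.3 to 15.9 CPM for Hoxd1 in control mice.

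In the A cluster smaller shifts passed the test, with little spread between mice. Hoxa9 was at 51.7, 57.1, 56.3, 59.1 and 57.4 CPM contralaterally and 47.5, 46.8, 48.5, 45.3 and 44.1 CPM ipsilaterally in control mice. Knockout mice had 57.9, 57, 54.9, 55.8 and 53.7 CPM and 47, 44.3, 46.3, 48.8 and 46.6 CPM. Sides did not overlap, and the log2 difference was -0.28 (SE 0.036, adjusted p = 4.42e-06) in control and -0.26 (SE 0.036, adjusted p = 9.4e-06) in cKO mice.

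Hoxa7, the member with the highest level per kilobase of exon, was at 40.7, 42.6, 41.4, 40.5 and 42.5 CPM contralaterally and 35.7, 35.7, 33.9, 36.9 and 35.9 CPM ipsilaterally in control mice. For cKO mice the values were 43.1, 42, 39, 43.3 and 40.1 CPM and 35.2, 34.8, 34.7, 37.5 and 37.6 CPM. The 2 ranges were apart in each genotype, with log2 differences of -0.22 (SE 0.035, adjusted p = 5.27e-05) and -0.21 (SE 0.035, adjusted p = 0.00011). Hoxa5, a cervical and thoracic gene, was at 6.63, 6.43, 6.54, 6.57 and 6.88 CPM contralaterally and 5.01, 5.09, 4.81, 4.68 and 5.2 CPM ipsilaterally in control mice. The cKO libraries held 6.12, 6.2, 6.65, 6.83 and 6.38 CPM and 5.28, 5.25, 5.24, 6.25 and 5.48 CPM. Sides were apart in control mice and overlapped in cKO mice, where ipsilateral mouse 99 was high at 6.25 CPM. Hoxa5 fell by 0.41 (SE 0.053, adjusted p = 3.65e-06) in control and by 0.23 (SE 0.053, adjusted p = 0.00225) in cKO mice.

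Abundant genes of groups 8 and 9 did not all follow. Hoxb9 was at 16.5, 21.1, 23.3, 23.1 and 22.2 CPM contralaterally and 24.5, 26.1, 22.5, 27.4 and 25.9 CPM ipsilaterally in control mice. In cKO ganglia it was at 23.2, 25.9, 23.8, 25.3 and 25.1 CPM and 29.3, 26.9, 25.5, 27.1 and 25.3 CPM. Ipsilateral values were higher in 4 of 5 control mice with overlap between sides, and Hoxb9 rose by a log2 of 0.25 (SE 0.074, adjusted p = 0.0129) in control mice. In cKO mice ipsilateral values were higher in 5 of 5 mice, also with overlap, and the log2 difference was 0.12 (adjusted p = 0.232, edgeR). Control mouse 62 had the lowest contralateral Hoxb9, and without mouse 62 the call held.

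Hoxd8 was at 31.2, 31.1, 33.2, 29.4 and 31.5 CPM contralaterally and 31.2, 30.2, 31.2, 30.0 and 30.7 CPM ipsilaterally in control mice. In cKO mice it was at 33, 31.1, 35.5, 30.1 and 37.2 CPM and 30.3, 32.3, 30.2, 30.7 and 32.9 CPM. The sides overlapped in both genotypes, with cKO contralateral mice 95 and 100 the highest, and neither comparison passed. Hoxd9 was at 16.6, 19.9, 21, 20.1 and 20.9 CPM contralaterally and 18.7, 18.4, 20.9, 19 and 19.9 CPM ipsilaterally in control mice. The cKO values were 20.2, 18.6, 22.8, 17.5 and 22.5 CPM and 19.1, 19, 18.8, 19 and 20.5 CPM. Sides overlapped here too, and Hoxd9 did not pass in either genotype.

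The other members called within a genotype lay in the A, B and C clusters. Hoxd3 of the D cluster was called only in the side difference averaged over genotypes (-0.22, adjusted p = 0.015, edgeR). In both genotypes Hoxb3 (-0.44 and -0.45), Hoxb2 (-0.28 and -0.40), Hoxc6 (-0.33 and -0.40) and Hoxa10 (-0.20 and -0.44) fell, given as log2 differences in control and then cKO mice. Hoxb5 (-0.22) fell and Hoxb4 (0.20) and Hoxa11 (1.6) rose in control mice, while Hoxc8 (-0.43) and Hoxb7 (-0.20) fell in cKO mice. A call in one genotype and not in the other does not show a difference, and the interaction of genotype and side passed for 0 of 32 Hox genes, as for 0% of all tested genes (edgeR, smallest adjusted p = 0.485, 4 members at an unadjusted p under 0.05). Among all tested genes 9.8% had an unadjusted interaction p under 0.05. With DESeq2 the interaction also called 0 Hox genes, and 0.0385% of all genes.

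Several calls near the threshold were lost in fits with 1 mouse fewer, with the sign of the difference kept. Without 1 control mouse, Hoxa10 lost its control call (63, 65, 96 or 97, adjusted p 0.0968 to 0.165), as did Hoxb4 (63, 65 or 96, adjusted p 0.113 to 0.154), Hoxb2 (62, 63 or 96, adjusted p 0.0526 to 0.131) and Hoxb5 (65, adjusted p = 0.0806). Leaving out a cKO mouse also ended the control calls of Hoxa10 (95, adjusted p = 0.0673) and Hoxb4 (61 or 99, adjusted p 0.0546 and 0.06). In control mice the log2 difference then ranged from -0.25 to -0.17 for Hoxa10, 0.19 to 0.25 for Hoxb4, -0.31 to -0.21 for Hoxb2 and -0.22 to -0.17 for Hoxb5, over all fits without 1 mouse. Hoxb7 in cKO mice was lost without mouse 61 or 64 (adjusted p = 0.1 and 0.284), and without mouse 64 its log2 difference was -0.098. With mouse as a replicate block, Hoxb7 in cKO mice missed the threshold (adjusted p = 0.061) and Hoxa6 (-0.28, adjusted p = 0.03) and Hoxb5 (-0.14, adjusted p = 0.0249) passed it. With no filter on low counts, 10 in place of 14 of the 32 members were called in control mice, and Hoxa10, Hoxa11, Hoxb2 and Hoxb4 were lost (adjusted p 0.0535 to 0.0758), as was Hoxb7 in cKO mice (0.0926). Of the 7 members below the filter, that fit called Hoxb13 in control mice (adjusted p = 0.0342, edgeR) and Hoxc12 in cKO mice (adjusted p = 0.0414, edgeR), on at most 10 counts in a library. With the fibroblast score as a covariate, Hoxa11 (adjusted p = 0.146) and Hoxb4 (adjusted p = 0.0737) in control mice and Hoxb7 in cKO mice (adjusted p = 0.117) were lost, and Hoxb7 was also lost with the compared libraries alone (adjusted p = 0.123) and without contralateral libraries 64 and 99 (adjusted p = 0.182). The calls of Hoxd1, Hoxa5, Hoxa7, Hoxa9, Hoxb3, Hoxb6, Hoxb8 and Hoxc6 in both genotypes held under every alternative that was run.

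Hoxd10, Hoxd11, Hoxc11 and Hoxa11 varied within groups more than any other tested Hox gene, and are given per library for that spread, after their values were seen. Hoxa10 and Hoxc10, of the same paralogue group as Hoxd10, had smaller pooled SDs of log2 CPM, 0.12 and 0.23. Both were also wider contralaterally, with SDs in control and cKO mice of 0.16 and 0.17 for Hoxa10 and 0.26 and 0.35 for Hoxc10. Ipsilateral SDs were 0.047 and 0.038 for Hoxa10 and 0.074 and 0.13 for Hoxc10. Hoxd10, which patterns lumbar motor neurons and the hindlimb, was at 4.96, 12, 9.61, 11.3 and 8.79 CPM contralaterally and 10.6, 8.22, 12.7, 10.7 and 10.3 CPM ipsilaterally in control mice. Levels in cKO mice were 12.2, 3.27, 19.2, 0.856 and 14.7 CPM and 11.1, 10.1, 11.7, 10.3 and 12.7 CPM. Low contralateral values in cKO mice 64 and 99 faced ordinary ipsilateral values of 10.1 and 10.3 CPM in the same mice, and control mouse 62 was low on the contralateral side only.

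Hoxd11, its neighbour, was at 3.01, 5.47, 5.53, 6.41 and 4.4 CPM contralaterally and 6.55, 4.88, 7.49, 5.52 and 5.82 CPM ipsilaterally in control mice. Knockout mice had 6.24, 1.1, 9.09, 0.494 and 6.65 CPM and 5.91, 4.95, 6.07, 5.19 and 6.96 CPM. The order of the cKO contralateral libraries, 95 highest and 99 lowest, was that of Hoxd10. Hoxc11, the paralogue in the C cluster, was at 1.66, 2.45, 1.27, 3.26 and 2.07 CPM contralaterally and 2.36, 1.8, 3.95, 3.08 and 2.8 CPM ipsilaterally in control mice. For cKO mice the values were 2.71, 0.609, 9.15, 0.0241 and 6.96 CPM and 2.57, 2.19, 2.06, 2.74 and 3.19 CPM. The contralateral library of mouse 99 held 2 counts of Hoxc11, below the limit of 3 counts.

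Hoxa11, which lies over an antisense transcript, was at 0.0952, 0.894, 0.318, 0.398 and 0.648 CPM contralaterally and 1.27, 1.84, 1.41, 1.05 and 1.45 CPM ipsilaterally in control mice. The cKO libraries held 1.43, 2.27, 2.63, 0.326 and 4.15 CPM and 0.72, 1.35, 1.1, 1.21 and 2.26 CPM. Control sides did not overlap and all 5 control mice were higher ipsilaterally, while 4 of 5 cKO mice were lower ipsilaterally. The control rise of 1.6 on the log2 scale (SE 0.54, adjusted p = 0.033) was lost without control mouse 62, 65, 96 or 97 (adjusted p 0.0624 to 0.102) and with the fibroblast marker score as a covariate (1.09, adjusted p = 0.146). In cKO mice the difference was -0.70 (SE 0.50, adjusted p = 0.314).

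**Figure D4:**
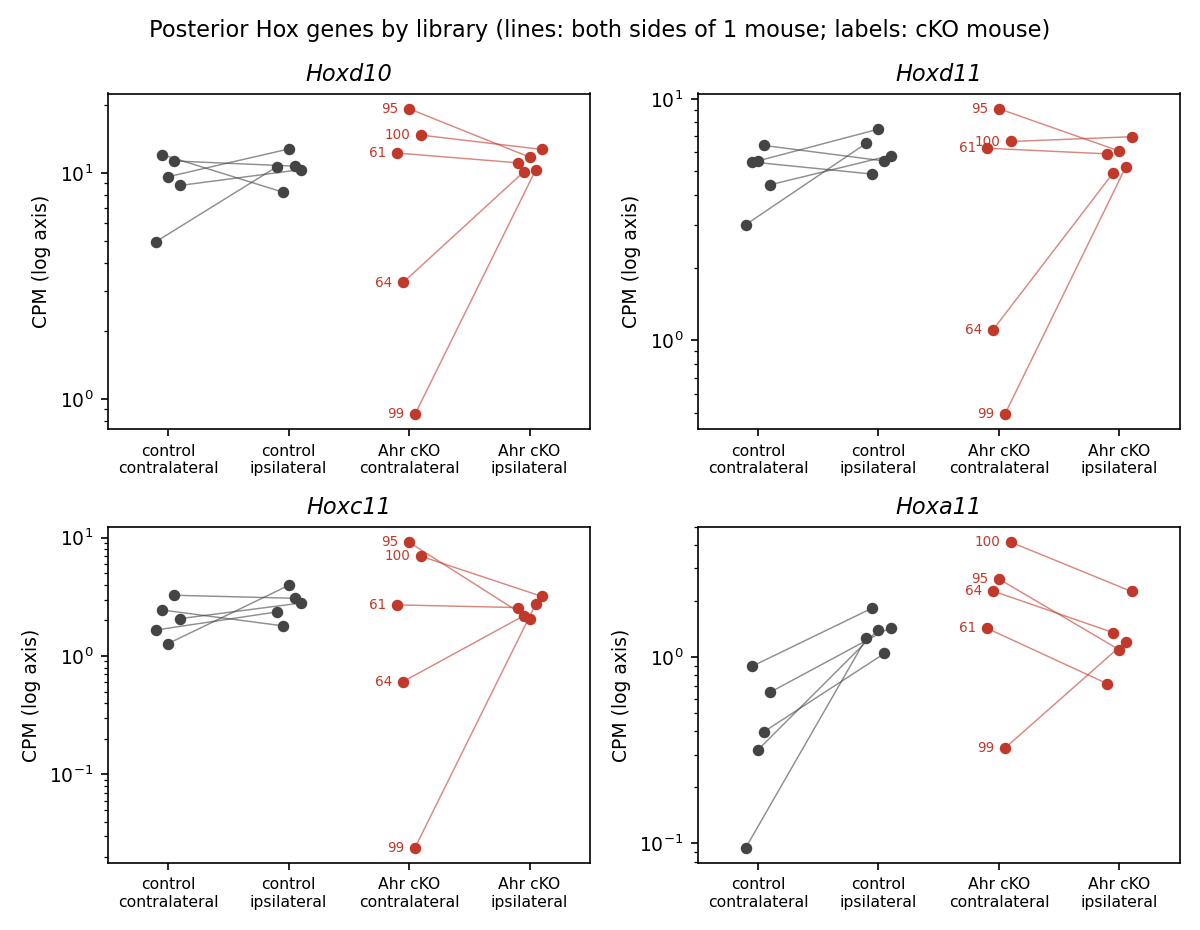
CPM of Hoxd10, Hoxd11, Hoxc11 and Hoxa11 in each library on log axes, with lines joining both sides of a mouse and cKO mice labelled by number. Contralateral cKO libraries spread widest, from 0.856 CPM in mouse 99 to 19.2 CPM in mouse 95 for Hoxd10, and their ipsilateral partners lie close together.

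Spread between mice within a group set these genes apart from the rest of the family. The SD of log2 CPM, pooled over the 4 groups, was 0.98 for Hoxd10, 0.95 for Hoxd11, 1.61 for Hoxc11 and 0.95 for Hoxa11, and between 98.2% and 99.6% of all tested genes had a smaller one. The median over all 32 Hox genes was 0.14, beside 0.15 over all tested genes, and without these 4 members it was 0.13 with a maximum of 0.34 (Hoxa2, a low gene). For Hoxd10 the SD was 1.87 in cKO contralateral, 0.51 in control contralateral, 0.23 in control ipsilateral and 0.14 in cKO ipsilateral libraries. Hoxd11 had 1.83, 0.42, 0.24 and 0.19 in the same order of groups. Hoxc11 had 3.14, 0.51, 0.42 and 0.25, while Hoxa11 was wide on the contralateral side of both genotypes, with 1.375, 1.14, 0.29 and 0.58. Over all tested genes the median SD was also highest in the cKO contralateral group, at 0.17, against 0.12 to 0.13 in the other groups.

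**Figure D5:**
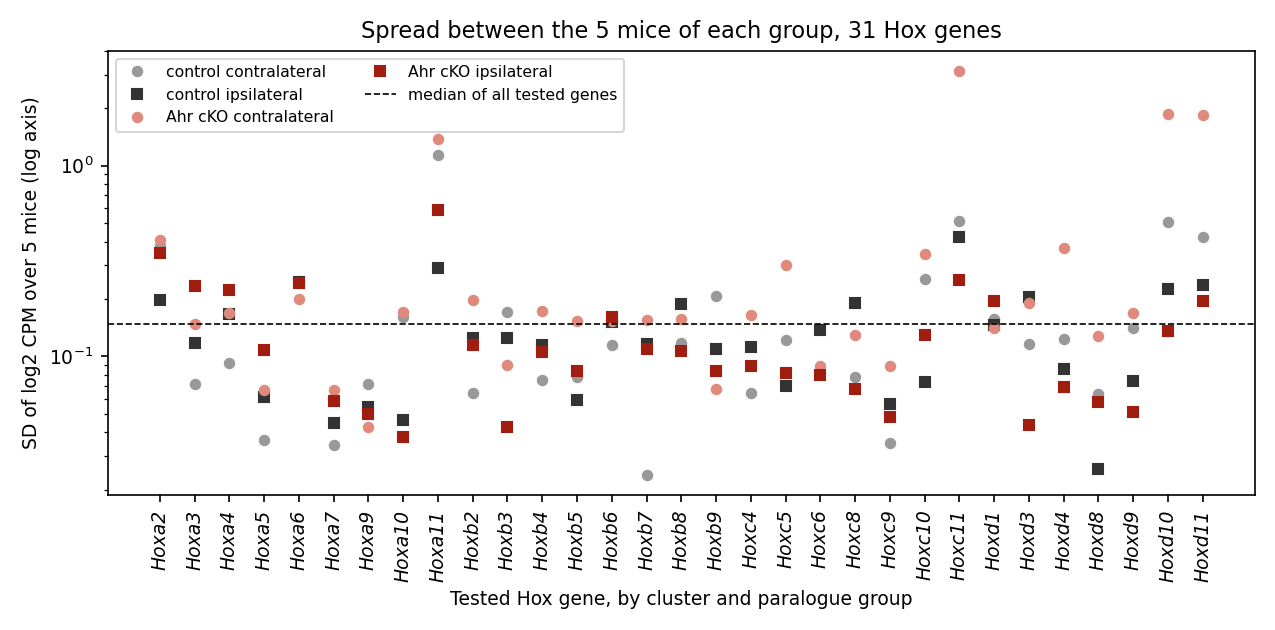
SD of log2 CPM over the 5 mice of each group for 31 tested Hox genes, on a log axis, with a dashed line for the median pooled SD of all tested genes. Hoxc11, Hoxd10 and Hoxd11 in cKO contralateral libraries lie far above the line, and the abundant genes Hoxa7, Hoxa9 and Hoxd8 lie mostly below it.

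Marker sums of fibroblasts and skeletal muscle were set beside Hoxd10 in the contralateral libraries, as a description. Summed CPM of 7 fibroblast markers, none of them at 0, were 1010, 2245, 1985, 937 and 1689 in the cKO contralateral libraries, so the low-Hoxd10 libraries 64 and 99 had the highest and the lowest sum of their group. Control contralateral sums were 803 to 1359. Sums of 6 skeletal muscle markers ran from 2.91 to 1691 CPM over all libraries, with 14.6, 19.9, 63.1, 5.5 and 1691 in the cKO contralateral libraries, so the high-Hoxd10 libraries 95 and 100 had the highest muscle sums of their group. In control contralateral libraries they were 370, 19.5, 171.8, 74.8 and 9.18 CPM, and the highest was mouse 62, the lowest of that group for Hoxd10. The part of fibroblast or muscle RNA in these values was not tested. Sensory neuron markers summed to 7530 CPM in the contralateral library of mouse 64, within the range of the other libraries. In that of mouse 99 they summed to 8478 CPM, the highest of all libraries. The part of ganglion level or dissection in these values was not tested, as the labels give no level per library.

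Across the 10 contralateral libraries, Hoxd11 (Pearson r = 0.985, Spearman rho = 0.964, exact permutation p = 0.000347 for r), Hoxc11 (r = 0.965, rho = 0.952), Hoxc10 (r = 0.821, rho = 0.818), Hoxd9 (r = 0.832, rho = 0.733) and Hoxc5 (r = 0.862, rho = 0.721) went with Hoxd10 in log2 deviations from the group means. Permutations were made within genotype, and these 5 of 31 Hox genes passed after adjustment by Pearson's r (adjusted p 0.00754 to 0.0482) and 0 by Spearman's rho (smallest adjusted p = 0.099). The share of all tested genes that would pass was not computed. Outside the clusters, Penk (r = 0.94) and Srd5a2 (r = 0.93) had a higher contralateral r with Hoxd10 than Hoxc10, Hoxd9 or Hoxc5. Without mice 95 and 99, the farthest from the median, r was 0.971 for Hoxd11, 0.867 for Hoxc11, 0.766 for Hoxc10, 0.763 for Hoxd9 and 0.53 for Hoxc5. In these 8 mice 4 of 31 had an unadjusted p under 0.05 and 0 passed after adjustment (exact permutation). Both values of a pair share 1 library's depth and composition. On the ipsilateral side 1 of 31 passed, Hoxd11 (r = 0.927, rho = 0.903, exact permutation adjusted p = 0.0258 for r), with r = 0.885 without mice 63 and 65, where 0 of 31 passed after adjustment.

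Values of the 2 sides of a mouse were weakly related. Over 10 mice, the deviations of contralateral and ipsilateral values had a median r of 0.21 over the 32 Hox genes, from -0.86 to 0.83, and 0 of 32 passed (exact permutation within genotype, smallest adjusted p = 0.122, 2 members at an unadjusted p under 0.05). For Hoxd10 r was 0.332 (rho = 0.467, exact permutation p = 0.256). Without the 2 mice farthest from the median the family median was 0.082.

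Genotype comparisons asked whether deletion of Ahr went with another positional profile. On the contralateral side 0 of 32 Hox genes passed, beside 0.0735% of all tested genes (edgeR, smallest adjusted p = 0.1, 4 members at an unadjusted p under 0.05 against 17.5% of all genes). Hoxa11 came closest, with a log2 difference of 2.22 (SE 0.54, adjusted p = 0.1), and its groups overlapped because of mouse 99. Hoxc8 was the only member whose groups did not overlap, at 6.4 to 7.39 CPM in control and 7.51 to 9.08 CPM in cKO mice, where 0.448% of all genes were higher without overlap, and it did not pass (0.27, adjusted p = 0.115). On the ipsilateral side 0 of 32 passed beside 0.007% of all genes (edgeR, 1 member at an unadjusted p under 0.05 against 2.36% of all genes, DESeq2 0). Hoxa5 was higher without overlap there, as 0.364% of all genes were, and did not pass (0.15, adjusted p = 1).

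The contralateral genotype result turned on which cKO libraries were kept. DESeq2 called 3 Hox genes (Hoxa10, Hoxa11 and Hoxc8) where it called 3.64% of all genes. Without mouse 99, edgeR called Hoxa10, Hoxa11 and Hoxc5, and 11.5% of all genes. Without the contralateral libraries of mice 64 and 99, an alternative chosen after seeing the data, it called 6, all higher in cKO: Hoxa10 (0.27), Hoxa11 (2.56), Hoxc5 (0.33), Hoxc10 (0.47), Hoxc11 (1.55) and Hoxd8 (0.17), beside 5.52% of all genes. Leaving out the high libraries 95 and 100 instead gave 0 Hox calls and 0.0102% of all genes, and Hoxd10 then changed from 0.11 to -0.76 on the log2 scale. Of all 32 members, 24 were higher in cKO contralateral ganglia in the fit of all libraries, with a median log2 difference of 0.08 beside -0.013 over all genes. Fibroblast marker sums were also higher and wider in cKO contralateral libraries (937 to 2245 CPM against 803 to 1359), and with their score as a covariate 2 members in place of 4 had an unadjusted p under 0.05. The Hoxa11 difference was then 0.98 in place of 2.22 on the log2 scale (adjusted p = 0.99 in place of 0.1, edgeR).

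How narrowly a member was held to its level depended on the gene. The 95% interval of the fold change lay within 1.5-fold for 27 of 32 Hox genes between genotypes on each side, beside 70.9% and 74% of all tested genes. For the side difference it did so for 22 of 32 in control and 20 of 32 in cKO mice, beside 63.4% and 63.2% of all tested genes. Hoxd1 fell outside in both genotypes, with intervals of -1.19 to -0.79 and -1.05 to -0.65 on the log2 scale. Hoxd10, Hoxd11 and Hoxc11 had intervals that included 0 and ran past 1.5-fold in every comparison, and for Hoxd10 between genotypes contralaterally the interval ran from -0.95 to 1.17. For Hoxa11 that interval was 1.08 to 3.36, beyond 1.5-fold, without passing the adjusted test, and for the control side difference it was 0.46 to 2.74.

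Partners and regulators of Hox proteins were called between sides and not between genotypes. Of 9 TALE cofactors all were tested, and 8 were called in control mice (6 lower, 2 higher) and 6 in cKO mice (5 lower, 1 higher), beside 29.9% and 31.3% of all tested genes, with median log2 differences of -0.19 and -0.13. Pknox2 fell by 0.43 and 0.29, Meis1 by 0.38 in both, Meis2 by 0.30 in both and Pbx4 by 0.27 and 0.25. Pbx2, the cofactor with the highest level (17.8 CPM per kb), fell by 0.19 and 0.13. Of 24 Polycomb and Trithorax genes, 15 were called in control mice (10 higher, 5 lower) and 14 in cKO mice (10 higher, 4 lower), beside the same 29.9% and 31.3% of all genes, with medians of 0.021 and 0.099. In control and then cKO mice, Cbx7 fell by 0.40 and 0.32, Jarid2 by 0.43 and 0.31, and Cbx8, a Polycomb reader, by 0.41 and 0.45. Men1, part of a Trithorax-type complex, rose by 0.35 and 0.44.

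Of 13 upstream regulators 9 were tested, and 4 were called in control mice (1 higher, 3 lower, median of the list -0.016) and 5 in cKO mice (1 higher, 4 lower, median -0.18), again beside 29.9% and 31.3% of all genes. The retinoid receptor gene Rxrg (-0.38 and -0.59) fell in both genotypes. Nr6a1, an orphan nuclear receptor, rose in cKO mice (0.30) and was at 0.14 in control mice (adjusted p = 0.17, edgeR). Rara rose in control mice (0.35) and was at 0.18 in cKO mice (adjusted p = 0.226, edgeR), and Rxra fell in cKO mice (-0.28) and was at -0.041 in control mice (adjusted p = 0.646, edgeR). Of 13 noncoding genes and neighbours of the clusters 10 were tested, and 6 were called in control mice (5 lower, 1 higher, median -0.23) and 4 in cKO mice, all lower (median -0.29), beside the same shares of all genes. Haglr, a noncoding RNA that starts beside Hoxd1, went from a mean of 7.63 ± 0.27 to 4.85 ± 0.22 CPM (SD, n = 5) in control mice, a log2 difference of -0.65, and fell by 0.54 in cKO mice. Hoxb3os fell by 0.32 and 0.39 and Hoxb5os by 0.24 and 0.29 in control and cKO mice. Hoxa11os, antisense to Hoxa11, rose by 1.43 in control mice (adjusted p = 0.0394, edgeR) and was at -0.70 in cKO mice (adjusted p = 0.275). Tbx4, the hindlimb T-box gene and the 1 tested of 3 limb-level genes, fell by 1.21 in control mice from a mean of 0.511 CPM and was at -0.23 in cKO mice (adjusted p = 0.616, edgeR). None of these 5 lists had a member called between genotypes on either side, or in the interaction.

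Some counts could be shared between genes. In GENCODE M21, 16 of 39 Hox genes share exon bases with another gene, 9 of them on the same strand and 10 on the opposite one. The largest shares were 53.1% of Hoxd3 exons (with Gm28230), 52.9% of Hoxb3 (with the antisense Hoxb3os), 39.1% of Hoxd4 (with Gm28230) and 35% of Hoxa11 (with the antisense Hoxa11os). The strand setting of the counting was not given in the sources used here, so Hoxb3 and Hoxb3os, and Hoxa11 and Hoxa11os, are uncertain apart. Hoxd1, Hoxb6 and Hoxb8 share no exon bases with another gene in that annotation, whereas Hoxd10 shares 5.73% with Gm28309 and Hoxd11 10.8%.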

How the data were processed

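The authors deposited whole-number read counts per gene for 20 libraries, with no normalization per the file headers, and FPKM values. In 21541 genes with at least 1000 counts the deposited FPKM equalled the CPM divided by 1 length per gene, within 0.1%, and for all 39 Hox genes that length was within 5% of the gene span, introns included. HISAT2, Picard, mm10 and mm39 are named in the submitters' processing notes. Which build was used for the counts, the counter, the annotation and the strand setting are not given in the sources used here. All count columns matched a library name, and symbols came from GENCODE M21 (51487 of 78258 identifiers, 98.1% of counts).

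Counts were fitted in R 4.3.3 with edgeR 4.0.16 (filterByExpr with minimum count 10 and total 15, TMM, robust quasi-likelihood), 1 mean per group over all 20 libraries, and Benjamini-Hochberg adjustment over 28564 genes. Alternatives were DESeq2 1.42.0, voom in limma 3.58.1 with a random mouse effect, RLE scaling, mouse as replicate block, other filters, the compared libraries alone, a fibroblast score as a covariate and leaving out each mouse. Levels per kilobase divide TMM-scaled CPM by merged M21 exon lengths. The fit was checked on simulated counts. Both sides come from 1 mouse per the labels, so mouse pairs the samples: deviations of the sides correlated with a median r of 0.186 over 10 mice (-0.0546 to 0.361). Replicates differed by more than counting error (chi-square per degree of freedom 5.3 to 58.6 over 40 pairs). The limit of 3 counts for a count of 0 covers counting error only, and reads carry no molecular identifiers. The 95% intervals of fold changes come from the edgeR fit and include the spread between mice.

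Full per-library values are given for the 6 members with the smallest adjusted p and the 6 with the highest level per kilobase, and fold changes for up to 4 genes of each gene list, those with the largest called change in any comparison, besides the TALE cofactor with the highest level. Any other member was picked for description once its values were known. The members and gene lists were chosen with earlier results of these data known. Values of 1 tested member are not reported here.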

Additional observations from a re-analysis of the deposited data

Results flagged for a closer look

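Among 124 sets of 5 libraries (31 Hox genes in 4 groups), 10 held a library whose gap to its nearest neighbour was over 0.71 of the range, where chance gives about 1 in 20 (6.2). Contralateral control mouse 62 accounted for 5: it was lowest for Hoxa10 (23.6 CPM, gap 0.795), Hoxb8 (16.2 CPM, 0.864), Hoxc10 (11.4 CPM, 0.739) and Hoxd9 (16.6 CPM, 0.746), and highest for Hoxd1 (33.5 CPM, 0.735). Ipsilateral cKO mouse 99 was highest for Hoxa5 (6.25 CPM, 0.756), and ipsilateral cKO mouse 100 for Hoxc10 (18.7 CPM, 0.948) and Hoxd9 (20.5 CPM, 0.815). The others were contralateral control mouse 96, highest for Hoxa4 (2.89 CPM, 0.756), and ipsilateral cKO mouse 64, lowest for Hoxc5 (3.01 CPM, 0.743). The low values of cKO mice 64 and 99 in Hoxd10 are not among them, as the measure sets only the gap to the nearest library against the range of the group.

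Below the expression filter, 4 members had more counts in a library than a count of 0 allows (3): Hoxa13 with 8 and Hoxb13 with 8, both in ipsilateral control mouse 96, Hoxc12 with 10 in contralateral cKO mouse 95 and Hoxd13 with 4 in ipsilateral cKO mouse 99. In an edgeR fit without the filter, the side difference averaged over genotypes was 4.2 on the log2 scale for Hoxb13 (adjusted p = 0.00575), a fitted value against 0 counts that is no bound.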

How the results depend on the processing

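Of 43 called Hox side differences, 34 kept their call and sign in every alternative, and 37 of 842 repeat values lost the call, with 0 changes of sign. The number of Hox genes called ranged from 10 to 15 (control side difference), 11 to 14 (cKO), 16 to 18 (both) and 0 to 3 (genotype, contralateral) over fits that left out 1 mouse, and stayed at 0 for the ipsilateral genotype comparison and the interaction. Contralateral genotype calls were 3 with DESeq2, 3 without mouse 99 and 6 without contralateral libraries 64 and 99. Mouse as replicate block gave 14, 13 and 18 side calls and 0 for the interaction, and changed no call beyond Hoxa6, Hoxb5 and Hoxb7. Levels summed to 133.2 to 137.7 CPM per kb without 1 mouse, but to 78.6 with lengths implied by the authors' FPKM. Under the narrowest fold bound tried, intervals held 9 (control side), 9 (cKO side), 14 (mean side), 12 (interaction), 18 (genotype, contralateral) and 23 (genotype, ipsilateral) members, 28.1%, 28.1%, 43.8%, 37.5%, 56.2% and 71.9% of 32 against 39.4%, 39%, 48%, 41%, 52% and 56.7% of all genes. Uncalled posterior genes changed sign with the library set, and the cause was not tested. On the cKO side difference, Hoxc11 became 0.94 (voom), 0.16 (replicate block), 0.050 (without mouse 95) and 1.19 (without contralateral 95 and 100), Hoxd10 -0.46 and Hoxd11 -0.33 (without contralateral 64 and 99). Between genotypes contralaterally, Hoxc11 became -0.66 (voom) and -0.92 and Hoxd10 -0.49 (voom), -0.12 (fibroblast score) and -0.76 (both without contralateral 95 and 100), and Hoxd11 0.56 (without contralateral 64 and 99). Leaving out 1 mouse, Hoxd10 ranged from -0.11 to 0.51 and Hoxc11 from -0.96 to 0.050 for the cKO side difference, and Hoxd10 from -0.24 to 0.41 and Hoxd11 from -0.43 to 0.22 for genotype. Depth limits only the 7 untested members and Hoxc11 in 1 library.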

Other observations

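Genes outside the Hox clusters whose level went with Hoxd10 over the 20 libraries (Pearson r of log2 deviations from group means among the 19364 genes averaging 1 CPM or more, as a description) included Srd5a2 (0.91), Penk, the enkephalin precursor (0.91), Tac1, the substance P precursor (0.88), Uts2b (0.87), Crhr2 (0.86), Negr1 (0.86) and Esr1, the estrogen receptor alpha (0.84). In cKO contralateral libraries of mice 61, 64, 95, 99 and 100, Penk was at 23.5, 14.8, 38.0, 7.24 and 36.2 CPM and Srd5a2 at 7.15, 0.507, 13.5, 0.229 and 10.3 CPM. The high libraries were those high for Hoxd10 and the lowest was mouse 99 for both genes. Opposite patterns picked for description had r from -0.79 (Clstn2) to -0.83 (Mrap, rank 19363 of 19364). Mouse 99 was the highest cKO contralateral library for Clstn2, at 65.2 CPM. On the ipsilateral side alone r was 0.43 for Srd5a2, 0.29 for Penk, 0.58 for Tac1, 0.51 for Uts2b, 0.60 for Crhr2, 0.77 for Negr1 and 0.51 for Esr1.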
